A study of Mus with 18 samples.

Results

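The genes described here encode heat shock chaperones and their partner proteins: Hspa1a, Hspa1b, Hspa8, Hsph1, Dnajb1, Hsp90aa1, Hsp90ab1, Hspd1, Hspe1 and Bag3. They were found by symbol in the deposited count table, 10 of its 35510 genes, and all 10 were among the 13482 genes that passed a filter on low counts. The 10 genes were chosen from measured values of these same libraries, with the changes of Hspa1b and other members between groups already known. Their differences between groups are therefore given as a description, and no p-value is given for a single member. Most of the 10 proteins work in the cytosol, but Hspd1 and Hspe1 encode a chaperonin of the mitochondrial matrix.

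The RNA came from RAW264.7 cells, a macrophage-like mouse cell line, and 18 libraries were made from it, 3 per group in 6 groups. Cells were stimulated with LPS and then treated with 1 of 4 sialic acid polymers, which carry the labels POx-SA, PPLG-SA, PPLG-2V-SA or PPLG-4V-SA, stimulated with LPS and given no polymer, or left untreated. A group name such as LPS + POx-SA stands for the polymer given after LPS. LPS is a bacterial outer membrane glycolipid that macrophages sense by the receptor TLR4, and the study asked how gene expression changes after LPS and after the polymers. The labels state no dose, no time and no meaning of the polymer codes, so doses and times of the polymers cannot be matched and their values stand side by side. They also do not say whether the 3 libraries of a group come from separate cultures, so SDs, SEs and p-values measure the spread between these samples, which may be technical.

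Heat shock factor 1, the product of Hsf1, is held inactive by chaperones and, when unfolded proteins draw these away, binds heat shock elements and drives transcription of chaperone genes. In the cytosol, HSP40 proteins such as Dnajb1 deliver clients to HSP70, and exchange factors such as Hsph1 and Bag3 release the bound nucleotide so that the cycle can restart. Some clients pass on to HSP90, while the ring chaperonin HSP60 and its lid HSP10, encoded by Hspd1 and Hspe1, fold imported proteins in mitochondria. Within HSP70 and HSP90, Hspa8 and Hsp90ab1 encode the textbook constitutive forms, and Hspa1a, Hspa1b and Hsp90aa1 the heat-inducible ones. The other members are not sorted in this way here.

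Total counts were 9755591 to 19759549 per library, and mitochondrially encoded genes took 2.90% to 7.17% of them. Of 12 macrophage markers, 12 lay above 1 CPM in untreated cells and 10 to 11 in the other groups. They summed to 5893 to 8427 CPM with LPS + POx-SA, 4244 to 5619 in the 3 PPLG groups, 7309 to 8308 with LPS and 12078 to 13198 in untreated cells. Summed dendritic cell markers reached 9.61 CPM in LPS + PPLG-4V-SA, against at most 1.81 with LPS and 2.45 in untreated cells, and lymphocyte markers at most 2.57 CPM in any library. The 7 markers of neutrophils and mast cells summed to at most 0.206 CPM in the 3 PPLG groups, 36.1 to 63.7 CPM with LPS + POx-SA, 150 to 255 CPM with LPS and 2396 to 2655 CPM in untreated cells. Of these, Ly6g, Elane, Cpa3 and Kit were at 0 in every library of the last 3 groups. The part of all these markers in the results was not tested. In such bulk RNA, fewer cells of a type and less RNA per cell cannot be told apart. Genes under 1 kb of implied length were compared with the mean of the other libraries of the same group. They stood above it by a median log2 of 0.49 in LPS replicate 3 and 0.43 in LPS + POx-SA replicate 3. Values that touch these libraries are given below.

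Levels of different genes can be compared only per length, on the deposited FPKM scale (fragments per kilobase, scaled to library depth). The 10 genes summed to 2471 ± 386 FPKM with LPS + POx-SA, 2908 ± 128 with LPS + PPLG-SA, 3221 ± 47.9 with LPS + PPLG-2V-SA and 2764 ± 53.1 in LPS + PPLG-4V-SA, against 1063 ± 153 with LPS and 1714 ± 62.1 in untreated cells (SD, n = 3 each). The LPS group was thus the lowest, at 954 to 1239 FPKM, and did not overlap any other group. FPKM are not corrected for a general shift: on log2(FPKM + 1) the median of all tested genes was 0.22 higher in LPS than in untreated cells, and 0.13 and 0.12 higher in LPS + PPLG-2V-SA and LPS + PPLG-4V-SA than in LPS.

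The make-up of this chaperone RNA differed between the groups as well. Hspa8, which encodes the constitutive HSC70, made up 37.8 ± 2.33% of the summed FPKM with LPS + POx-SA, and 22.7 ± 1.87%, 21.3 ± 1.99% and 22.1 ± 1.55% with PPLG-SA, PPLG-2V-SA and then PPLG-4V-SA after LPS. Its share was 20.8 ± 2.67% with LPS and 63.0 ± 1.07% in untreated cells. Hsp90ab1, the constitutive HSP90, had 19.6 ± 2.24% with LPS + POx-SA, 37.9% to 39.3% on average in the PPLG groups, 25.6 ± 1.51% with LPS and 12.0 ± 0.314% in untreated cells. In untreated cells and with LPS + POx-SA Hspa8 was thus the most abundant of the 10 transcripts per length. In the PPLG groups and in LPS without polymer it was Hsp90ab1. Its lead was small in LPS, where Hspe1 had 21.1 ± 3.62%.

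**Figure D1:**
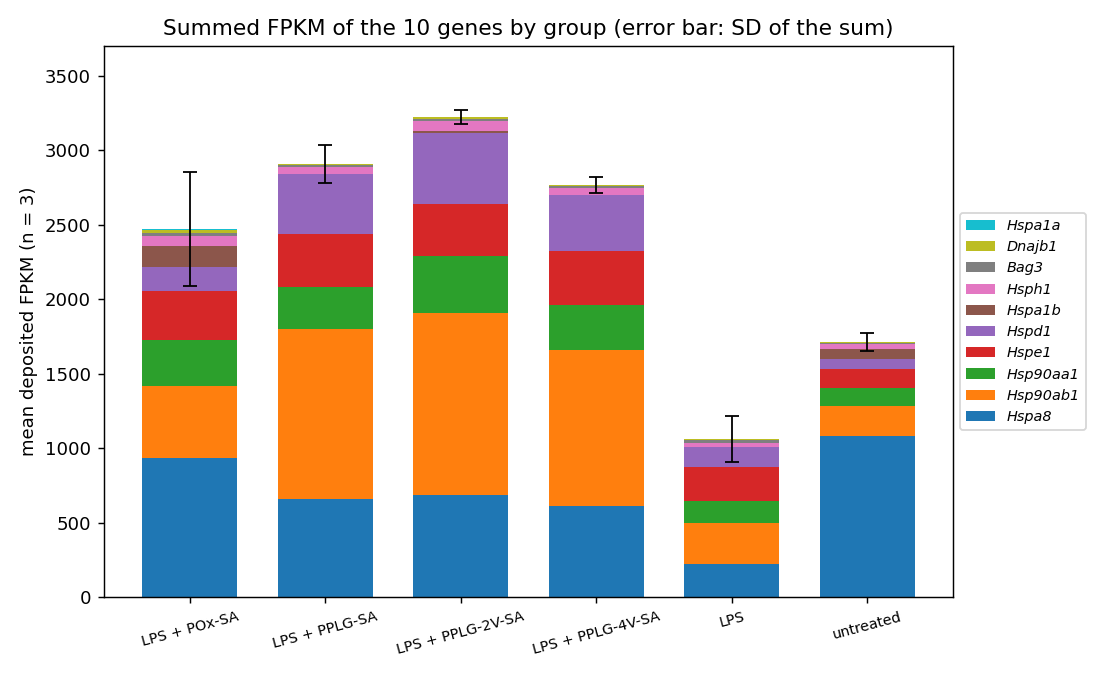
Mean deposited FPKM of the 10 genes stacked by group, 3 libraries each, with the SD of their sum as error bar. The Hspa8 segment is tallest in untreated cells, at 63.0% of the sum, and Hsp90ab1 takes 37.9% to 39.3% in the PPLG groups.

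Hspa1b, an inducible HSP70, varied more than any other member except its low copy Hspa1a. In CPM, that is counts relative to a library size adjusted by TMM, the unit from here on, it stood at 659, 233 and 343 with LPS + POx-SA, at 4.40, 3.69 and 0.972 with LPS + PPLG-SA, at 21.8, 22.9 and 22.4 with LPS + PPLG-2V-SA and at 1.06, 1.24 and 0.516 in LPS + PPLG-4V-SA. Its level was 3.62, 0.978 and 2.86 CPM with LPS and 223, 237 and 242 CPM in untreated cells. LPS + POx-SA and untreated cells thus shared a high range, PPLG-2V-SA stood alone in the middle, and LPS, PPLG-SA and PPLG-4V-SA overlapped near the bottom. The log2 fold change was 7.37 ± 0.48 (SE) for LPS + POx-SA against LPS, 3.17 ± 0.44 for LPS + PPLG-2V-SA against LPS and -6.55 ± 0.47 for LPS against untreated.

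Against untreated cells, Hspa1b with LPS + POx-SA stood at a log2 fold change of 0.81 ± 0.34, and the groups overlapped. Without POx-SA replicate 1 it was 0.33, and the call of this difference in the fit across all genes was lost, as it was without untreated replicate 1 (0.80), 2 (0.84) or 3 (0.86). With all libraries, DESeq2 did not call it (0.78 ± 0.52). For LPS + PPLG-4V-SA against LPS the value was -1.40 ± 0.60, not called in the fit across all genes. It was called without LPS replicate 2 (-1.78), and with all libraries by DESeq2 (-1.43) and without a filter on low counts (-1.42). By FPKM, Hspa1b ranked 559th of all genes with LPS + POx-SA, 10986th with LPS and 1032nd in untreated cells.

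Hspa1a, the close copy of Hspa1b, encodes a nearly identical HSP70 and lies between Hspa1b and Hspa1l on chromosome 17 in the RefSeq gene order. It had 303, 27 and 152 counts (22.5, 2.04 and 10.7 CPM) with LPS + POx-SA, 0, 0 and 2 counts with LPS + PPLG-SA, 3, 1 and 4 with LPS + PPLG-2V-SA and 0 in each library with LPS + PPLG-4V-SA. There were 0, 1 and 0 counts with LPS and 0 in each untreated library. Only LPS + POx-SA libraries had more than 4 counts, and since Hspa1a passed the filter through these alone, it had to differ between groups.

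Over the group sums, Hspa1a was 541-fold higher in LPS + POx-SA than in LPS (482 counts against 1, 95% counting interval 96.6 to 21404). It was at least 100-fold higher than in untreated cells, taking 3 counts in all as the floor of that group. In LPS + PPLG-SA it was 273-fold lower than in LPS + POx-SA (counting interval 75.0 to 2257). Intervals and bounds of this kind cover counting error only.

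Of the reads of both copies, Hspa1a held 3.30% (95% Wilson interval 2.95% to 3.68%), 0.868% (0.597% to 1.26%) and 3.03% (2.59% to 3.54%) in the 3 LPS + POx-SA libraries, and 0 of 1784, 2032 and 2167 in untreated cells, where up to 0.215% lies within the interval. In replicate 2 of LPS + POx-SA, Hspa1b stood at 233 CPM, against 223 to 242 in untreated cells. At this like level Hspa1a had 27 reads there and none without treatment. Replicates 1 and 3 of LPS + POx-SA had more Hspa1b, at 659 and 343 CPM. A share above 0 was not limited to LPS + POx-SA. It was 0.763%, 0.242% and 0.803% with LPS + PPLG-2V-SA, on 3, 1 and 4 Hspa1a reads. LPS replicate 2 (1 of 16 reads) and LPS + PPLG-SA replicate 3 (2 of 18) had too few reads for a stable share. How the authors assigned reads that match both copies is not given in the sources used here, so the split between Hspa1a and Hspa1b is uncertain. Summed, the copies came to 682, 235 and 353 CPM with LPS + POx-SA, 22.0, 22.9 and 22.6 with LPS + PPLG-2V-SA, 3.62, 1.04 and 2.86 with LPS, and 223, 237 and 242 in untreated cells, so the order of the groups rests on Hspa1b.

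**Figure D2:**
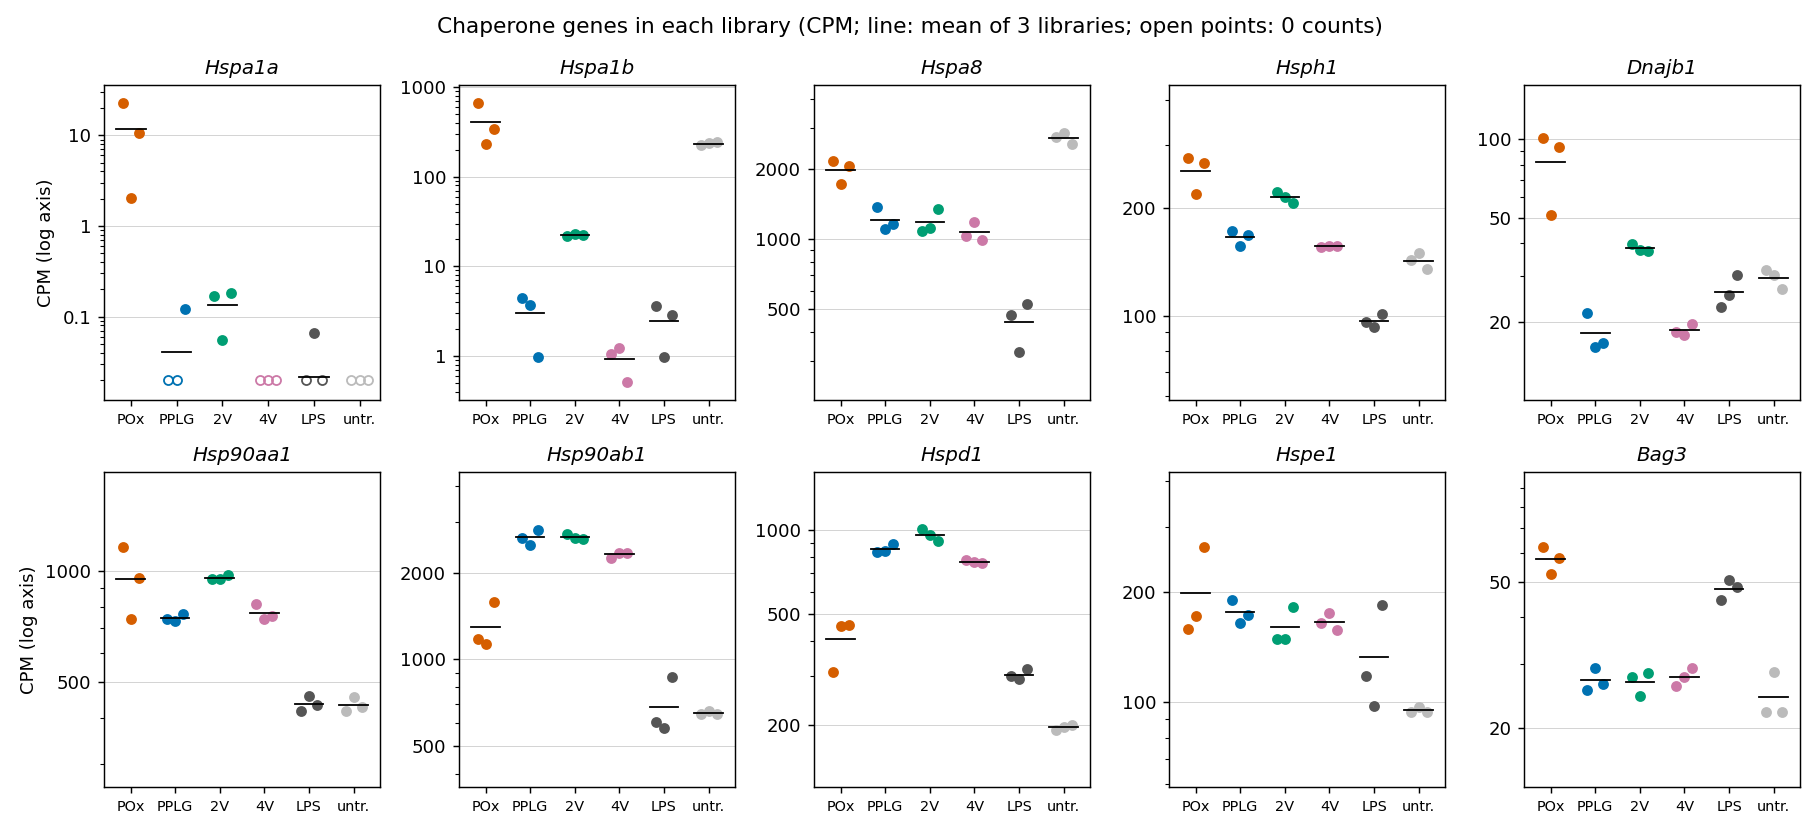
CPM of the 10 genes in each of the 18 libraries, on a log axis that differs between panels, with the mean of 3 libraries as a line and libraries with 0 counts as open points. From the left stand the groups LPS + POx-SA, LPS + PPLG-SA, LPS + PPLG-2V-SA, LPS + PPLG-4V-SA, LPS and untreated. Hspa1b spans 0.516 to 659 CPM, while Hsp90ab1 and Hspd1 are highest in the PPLG groups.

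Hspa8 followed a related order over a smaller range. With LPS + POx-SA it had 2171, 1717 and 2050 CPM, with LPS + PPLG-SA 1372, 1107 and 1156, in LPS + PPLG-2V-SA 1088, 1119 and 1349 and in LPS + PPLG-4V-SA 1030, 1188 and 989. LPS libraries had 474, 327 and 525 CPM and untreated libraries 2734, 2860 and 2563. Untreated cells were highest and LPS lowest without overlap, LPS + POx-SA came next to untreated, and the PPLG groups overlapped each other between LPS + POx-SA and LPS. The log2 fold change was -2.62 ± 0.16 for LPS against untreated, and 2.16 ± 0.16, 1.46 ± 0.16, 1.42 ± 0.16 and 1.27 ± 0.16 against LPS for POx-SA, then PPLG-SA, PPLG-2V-SA and then PPLG-4V-SA.

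Per length, Hspa1b had 0.142 times the FPKM of Hspa8 with LPS + POx-SA, 0.00380 times with LPS and 0.0609 times in untreated cells. In the PPLG groups this ratio was 0.00172 (PPLG-SA), 0.0132 (PPLG-2V-SA) and, for PPLG-4V-SA, 6.02e-04. The inducible and the constitutive HSP70 therefore parted in the PPLG-SA and PPLG-4V-SA groups, where Hspa8 lay above LPS and Hspa1b overlapped LPS.

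Hsph1, an HSP110 that releases nucleotide from HSP70, had 275, 218 and 266 CPM with LPS + POx-SA, 173, 157 and 168 with LPS + PPLG-SA, 222, 215 and 206 in LPS + PPLG-2V-SA and 156, 157 and 157 in LPS + PPLG-4V-SA. It had 96.5, 93.3 and 101 CPM with LPS and 143, 150 and 135 CPM in untreated cells. Every polymer group lay above LPS without overlap, LPS lay below untreated cells, and LPS + POx-SA overlapped LPS + PPLG-2V-SA at the top. Log2 fold changes against LPS were 1.38 with POx-SA, then 0.78 (PPLG-SA), 1.15 (PPLG-2V-SA) and, for PPLG-4V-SA, 0.70, each with an SE of 0.09, and LPS against untreated gave -0.56 ± 0.09.

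Dnajb1, the HSP40 that starts the HSP70 cycle, had 101, 51.4 and 93.7 CPM with LPS + POx-SA, 21.7, 16.1 and 16.7 with LPS + PPLG-SA, 39.9, 37.7 and 37.5 in LPS + PPLG-2V-SA and 18.3, 17.9 and 19.7 in LPS + PPLG-4V-SA. LPS libraries had 22.9, 25.3 and 30.3 CPM and untreated libraries 31.6, 30.3 and 26.8. POx-SA and then PPLG-2V-SA stood above all other groups, LPS and untreated cells overlapped, and PPLG-SA and PPLG-4V-SA lay below LPS. The log2 fold changes against LPS were 1.65 ± 0.19 for POx-SA, 0.55 ± 0.19 for PPLG-2V-SA, -0.53 ± 0.19 for PPLG-SA and -0.49 ± 0.19 for PPLG-4V-SA.

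The differences of Dnajb1 with the PPLG polymers were called with all libraries, but not in several sets without a library. For PPLG-SA the call was lost without LPS replicate 3 (-0.43) and without PPLG-SA replicate 2 (-0.45) or 3 (-0.47), and for PPLG-2V-SA without LPS replicate 1 (0.47). For PPLG-4V-SA it was lost without LPS replicate 2 (-0.51) or 3 (-0.40) and without PPLG-4V-SA replicate 1 (-0.47), 2 (-0.46) or 3 (-0.53).

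Bag3, which links HSP70 to small heat shock proteins and to selective autophagy, had a different order. It stood at 62.2, 52.5 and 58.0 CPM with LPS + POx-SA and at 44.6, 50.6 and 48.3 CPM with LPS. Its range was 24.5 to 29.2 CPM over the 9 libraries of the PPLG groups, and it was 22.2, 28.5 and 22.2 CPM in untreated cells. Bag3 was thus higher in LPS than in untreated cells (log2 0.98 ± 0.11), while in the PPLG groups it overlapped untreated cells, with log2 fold changes against LPS of -0.83, -0.84 and -0.79 (SE 0.11 each) for PPLG-SA, PPLG-2V-SA and then PPLG-4V-SA. For LPS + POx-SA against LPS it was 0.27 ± 0.11, without overlap and not called in the fit across all genes. With all libraries it was called by DESeq2 (0.28), with the DESeq2 size factors (0.28) and with a filter of 1 CPM in 3 libraries (0.29). It was also called without POx-SA replicate 2 (0.35).

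The HSP90 pair split the polymers in another way. Hsp90aa1, the inducible form, had 1159, 740 and 959 CPM with LPS + POx-SA, 742, 734 and 763 with LPS + PPLG-SA, 952, 948 and 976 in LPS + PPLG-2V-SA and 812, 741 and 753 in LPS + PPLG-4V-SA, against 419, 459 and 434 with LPS and 417, 456 and 429 in untreated cells. LPS and untreated cells overlapped, and every polymer library lay above both. Log2 fold changes against LPS were 1.12 with POx-SA, then 0.77 (PPLG-SA), 1.13 (PPLG-2V-SA) and, for PPLG-4V-SA, 0.81, each ± 0.12.

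Hsp90ab1 had 1174, 1129 and 1580 CPM with LPS + POx-SA, 2651, 2507 and 2808 with LPS + PPLG-SA, 2726, 2652 and 2615 in LPS + PPLG-2V-SA and 2255, 2343 and 2352 in LPS + PPLG-4V-SA. LPS libraries had 608, 577 and 868 CPM and untreated libraries 645, 663 and 644. The PPLG groups were highest, LPS + POx-SA lay between them and LPS, and LPS overlapped untreated cells. Against LPS, the log2 fold change was 0.92 ± 0.14 with POx-SA, 1.96 ± 0.15 with PPLG-SA, 1.96 ± 0.15 with PPLG-2V-SA and 1.76 ± 0.15 with PPLG-4V-SA.

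The FPKM of Hsp90ab1 was 1.61 times that of Hsp90aa1 with LPS + POx-SA, 4.11, 3.21 and 3.49 times with PPLG-SA, PPLG-2V-SA and then PPLG-4V-SA, 1.81 times with LPS and 1.73 times in untreated cells. Each PPLG library had a higher ratio than any other library. On the FPKM scale, the differences of Hsp90aa1 (0.35) and Hsp90ab1 (0.39) between LPS and untreated cells were called on log2(FPKM + 1), beside the shift of 0.22 that all genes show there. In CPM they stood at 0.01 ± 0.12 and 0.07 ± 0.14, and without LPS replicate 3 Hsp90ab1 stood at -0.13.

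The mitochondrial pair was read from neighbouring genes on chromosome 1. Hspd1, which encodes HSP60, had 309, 451 and 456 CPM with LPS + POx-SA, 835, 838 and 888 with LPS + PPLG-SA, 1011, 956 and 911 in LPS + PPLG-2V-SA and 778, 765 and 759 in LPS + PPLG-4V-SA. It had 299, 292 and 318 CPM with LPS and 192, 196 and 200 CPM in untreated cells. Untreated cells were lowest, LPS + POx-SA overlapped LPS, and the PPLG groups were highest. The log2 fold change was 0.63 ± 0.12 for LPS against untreated, and 0.42 ± 0.12, 1.49 ± 0.12, 1.66 ± 0.12 and 1.34 ± 0.12 for POx-SA, then PPLG-SA, PPLG-2V-SA and then PPLG-4V-SA, against LPS.

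Hspe1, which encodes HSP10, did not follow Hspd1. It had 158, 172 and 265 CPM with LPS + POx-SA, 190, 164 and 173 with LPS + PPLG-SA, 149, 149 and 182 in LPS + PPLG-2V-SA and 164, 175 and 157 in LPS + PPLG-4V-SA, against 118, 97.4 and 184 with LPS and 94.2, 97.3 and 94.2 in untreated cells. All polymer groups overlapped LPS, and LPS lay above untreated cells by as little as 97.4 against 97.3 CPM. The Hspe1 transcript is short, with an implied length of 0.524 kb, and its highest values in LPS and in LPS + POx-SA stood in the replicates 3 in which short genes as a whole were high; the part of this in the values of Hspe1 was not tested.

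The log2 fold change of Hspe1 was 0.48 ± 0.20 for LPS against untreated and 0.57 ± 0.20 for LPS + POx-SA against LPS, both called with all libraries. The first call was lost without LPS replicate 3 (0.19) and without untreated replicate 1 (0.47), 2 (0.50) or 3 (0.48). The other was lost without LPS replicate 1 (0.49) or 2 (0.39) and without POx-SA replicate 3 (0.33). For PPLG-SA, PPLG-2V-SA and then PPLG-4V-SA against LPS the values were 0.40, 0.26 and 0.31 with an SE of 0.20, not called, and without LPS replicate 3 they were 0.69, 0.54 and 0.59 and called.

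Per length, Hspd1 had 0.519 times the FPKM of Hspe1 with LPS + POx-SA, 1.11, 1.38 and 1.04 times with PPLG-SA, PPLG-2V-SA and then PPLG-4V-SA, 0.613 times with LPS and 0.529 times in untreated cells. Each PPLG library had a higher ratio than any other library, as for the HSP90 pair. By library the ratio was 0.649, 0.765 and 0.427 with LPS and 0.494, 0.660 and 0.404 with LPS + POx-SA. It was thus lowest in the replicates 3 in which short genes, Hspe1 among them, stood high, and the part of this in the ratio was not tested.

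**Figure D3:**
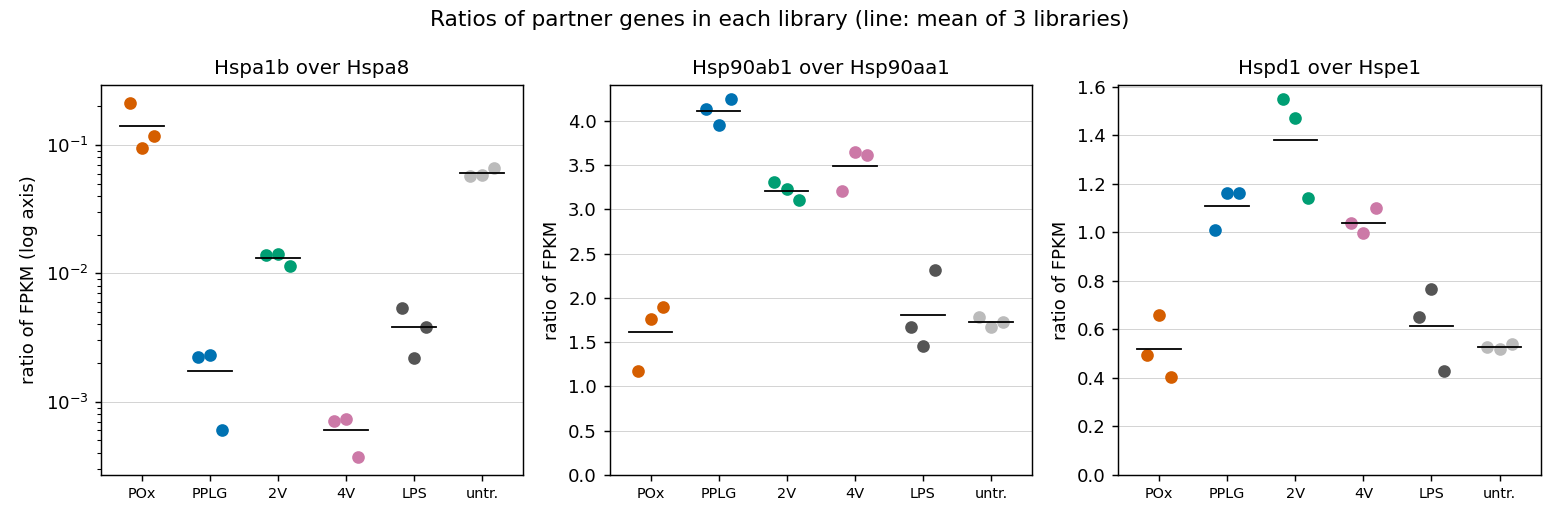
Ratio of deposited FPKM of 3 gene pairs in each library, with the mean of 3 libraries as a line; the left axis is logarithmic and the others start at 0. The groups from the left are LPS + POx-SA, LPS + PPLG-SA, LPS + PPLG-2V-SA, LPS + PPLG-4V-SA, LPS and untreated. In the middle and right panels the 3 PPLG groups lie above all other groups, with mean ratios of 3.21 to 4.11 and 1.04 to 1.38.

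The comparison of LPS with untreated cells asks what LPS changed. Of the 10 members, 3 were called higher (Hspd1, Hspe1 and Bag3), 3 lower (Hspa1b, Hspa8 and Hsph1) and 4 were not called by edgeR at an adjusted p below 0.05, in a comparison in which 59.2% of all tested genes were called. Over all genes 4149 were higher and 3833 lower, a split that became 5926 and 2260 on log2(FPKM + 1). Since the members were chosen with this comparison known, nothing is read from these counts.

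Each polymer group was compared with LPS to ask what the polymer changed after LPS. With POx-SA 9 members were called higher and 0 lower, where 46.3% of all genes were called. The 10th, Bag3, was not called in this fit, though DESeq2 called it higher. The 9 include Hspa1a, which had to differ because it passed the filter through LPS + POx-SA alone, and with the copies summed the count was 8. With PPLG-SA 5 were higher and 2 lower (59.9% of all genes), with PPLG-2V-SA 7 higher and 1 lower (61.0%) and with PPLG-4V-SA 5 higher and 2 lower (55.1%). Hspa8, Hsph1, Hsp90aa1, Hsp90ab1 and Hspd1 were called higher with all 4 polymers, and these comparisons share the same LPS libraries. The share of all tested genes called higher with all 4 was not determined, so this is not read as a trait of these members. Hspd1 with POx-SA overlapped LPS, and its call was lost when these 2 groups were fitted alone (0.43).

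Set against untreated cells, 9 members were called higher and 1 lower with LPS + POx-SA (58.3% of all genes called), 5 and 3 with LPS + PPLG-SA (67.9%), 5 and 2 with LPS + PPLG-2V-SA (74.0%), and lastly 4 and 3 in LPS + PPLG-4V-SA (70.3%). The 9 with LPS + POx-SA include Hspa1a, which had to differ because it passed the filter through that group alone. Hspa8 was the member below untreated cells with LPS + POx-SA, at a log2 fold change of -0.46 ± 0.16. That call was lost without untreated replicate 2 (-0.40) or POx-SA replicate 2 (-0.34). Hspa1a apart, the other 8 lay 0.81 (Hspa1b) to 1.48 (Dnajb1) above untreated cells on the log2 scale. Among those higher with LPS + PPLG-SA, Hsph1 stood at 0.22 ± 0.09. Its call was lost with DESeq2 (0.17) and with the filter of 1 CPM (0.20). It was also lost without untreated replicate 1 (0.21) or 3 (0.18) and without PPLG-SA replicate 1 (0.20) or 3 (0.22).

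**Figure D4:**
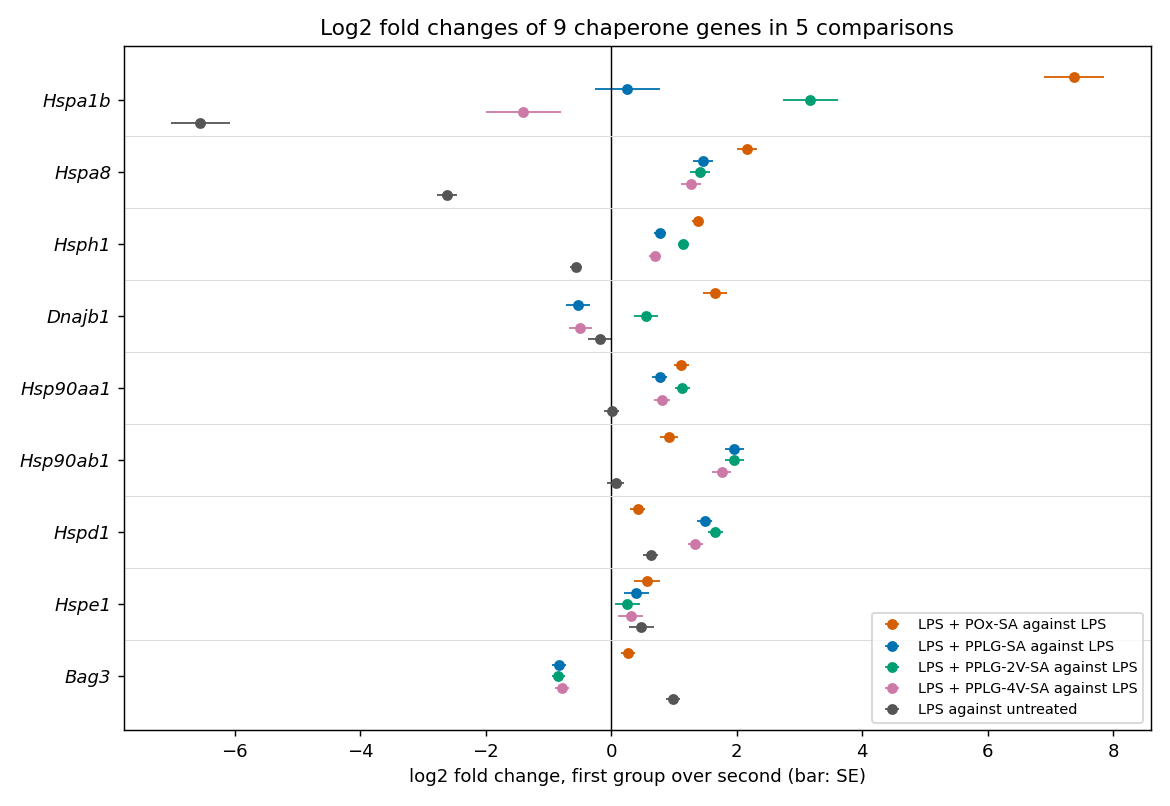
Log2 fold change (points) and SE (bars) of 9 members in 5 comparisons, each named by its groups in the legend; Hspa1a, with at most 1 count in LPS, is left out. Hspa1b spans -6.55 to 7.37, Hsp90ab1 and Hspd1 are higher with the PPLG polymers than with POx-SA, and Bag3 is below 0 with the PPLG polymers alone.

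Between polymers, 4 pairs were compared. LPS + PPLG-SA against LPS + POx-SA had 2 members higher, Hsp90ab1 (log2 1.04 ± 0.14) and Hspd1 (1.07 ± 0.12), and 7 lower, where 57.7% of all genes were called. The 7 include Hspa1a, which had to differ because it passed the filter through LPS + POx-SA alone. Among those lower were also Hspa1b (-7.11 ± 0.47), Dnajb1 (-2.18 ± 0.19) and Bag3 (-1.09 ± 0.11). The constitutive Hspa8 was lower too (-0.71 ± 0.16), without overlap. The inducible Hsp90aa1 (-0.35 ± 0.12) overlapped between the groups, and its call was lost without POx-SA replicate 1 (-0.23) and without PPLG-SA replicate 1 (-0.34) or 2 (-0.33).

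LPS + PPLG-2V-SA against LPS + PPLG-SA had 4 members higher and 0 lower, where 27.9% of all genes were called. Hspa1b stood at a log2 fold change of 2.91 ± 0.43, Dnajb1 at 1.08 ± 0.19, Hsph1 at 0.37 ± 0.09 and Hsp90aa1 at 0.36 ± 0.12. The call of Hsp90aa1 was lost without any of the 6 libraries, with values of 0.35 to 0.38, while the groups did not overlap. For Hsp90ab1 the 95% interval of the log2 difference was -0.30 to 0.31 and for Hspa8 it was -0.36 to 0.29.

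LPS + PPLG-4V-SA against LPS + PPLG-SA had 0 of 10 members called by edgeR, where 1.65% of all genes were called. At an unadjusted p below 0.05 there was 1, Hspa1b, and DESeq2 and limma called 0. In a fit of these 2 groups alone, 3 were called: Hspa1b (-1.69), Hsp90ab1 (-0.21) and Hspd1 (-0.17). The 95% interval was -0.28 to 0.11 for Hsph1, -0.37 to 0.45 for Dnajb1, -0.21 to 0.30 for Hsp90aa1 and -2.90 to -0.42 for Hspa1b. These intervals allow differences in either direction for all but Hspa1b, whose adjusted p missed the threshold. LPS + PPLG-4V-SA against LPS + PPLG-2V-SA had 0 higher and 3 lower, Hspa1b (-4.57 ± 0.50), Dnajb1 (-1.04 ± 0.19) and Hsph1 (-0.45 ± 0.09), where 12.0% of all genes were called.

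Within LPS + POx-SA the 3 libraries spread widely, and 7 members shared one order of the libraries. In replicate 1 the highest value and in replicate 2 the lowest was found for these 7: Hspa1a, Hspa1b, Hspa8, Hsph1, Dnajb1, Hsp90aa1 and Bag3. Hspd1 and Hspe1 were instead highest in replicate 3 and lowest in replicate 1. The share of all tested genes with either order was not determined, so neither is read as a trait of these members. The highest library stood 11.0 times above the lowest for Hspa1a, 2.83 times for Hspa1b, 1.97 times for Dnajb1 and 1.57 times for Hsp90aa1.

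Mitochondrially encoded genes took 7.17%, 5.10% and 4.91% of the counts of LPS + POx-SA replicates 1, 2 and 3, the highest share again being in replicate 1, and their part in the order of the members was not tested. In untreated cells no member but Bag3 (1.29) and Dnajb1 (1.18) had a highest library more than 1.12 times its lowest, Hspa1a aside.

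For 4 members the genes with the most similar pattern were sought, by the root mean square difference of log2 CPM over the 18 libraries, each gene centred on its mean. Nearest to Hspa1b were the metallothionein genes Mt1 (1.97) and Mt2 (2.07) and the RIKEN clone gene 2900024J01Rik (2.04). All were closer than the nearest member, Hspa1a (2.70), but far compared with pairs found for other members. These distances are not scaled to range, and Hspa1b spanned 9.99 in log2, against 1.56 for Hsph1, 1.47 for Hsp90aa1 and 2.39 for Hspd1. With 2900024J01Rik and Hspa1a near 0 in most groups, their distances are uncertain. Mt1 averaged 2310 ± 749 CPM with LPS + POx-SA, 192 ± 29.4 with LPS + PPLG-SA, 467 ± 174 with LPS + PPLG-2V-SA and 88.0 ± 13.1 in LPS + PPLG-4V-SA, against 632 ± 230 with LPS and 2550 ± 384 in untreated cells (SD, n = 3 each). As for Hspa1b, LPS + POx-SA and untreated cells were the highest groups and LPS + PPLG-4V-SA the lowest. Unlike Hspa1b, Mt1 averaged less with LPS + PPLG-2V-SA and with LPS + PPLG-SA than with LPS. Hspa1b lay above LPS with PPLG-2V-SA and overlapped LPS with PPLG-SA.

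Nearest to Hsph1 were Gm32639 (0.16), Mcrs1 (0.17) and Setd1a (0.18), with Hsp90aa1 the nearest member (0.24). Tmem144, Tacc2 and Me1, which encodes the cytosolic malic enzyme, were nearest to Hsp90aa1 (0.17 each). For Hspd1 they were Impdh2 (0.14), an enzyme of guanine nucleotide synthesis, Ahcyl (0.14) and the nucleolar gene Npm1 (0.15), with Hsp90ab1 the nearest member (0.24). Npm1 averaged 1272 ± 387 CPM with LPS + POx-SA, 2430 ± 77.8 with LPS + PPLG-SA, 2349 ± 127 with LPS + PPLG-2V-SA and 2077 ± 125 in LPS + PPLG-4V-SA, against 839 ± 133 with LPS and 601 ± 49.6 in untreated cells.

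Other genes of the heat shock system, none of them members, were tested in the fit across all genes, with p-values adjusted over all 13482. Of 9 heat shock factors and regulators 7 were tested. For the counts of this and the other lists, the share of all tested genes called against LPS was 22.2% higher and 24.1% lower with POx-SA, 29.2% and 30.7% with PPLG-SA, 30.8% and 30.2% with PPLG-2V-SA, and 28.0% and 27.1% with PPLG-4V-SA. For LPS against untreated it was 30.8% higher and 28.4% lower. Against LPS, 1 rose and 2 fell with POx-SA, 0 and 5 with PPLG-SA, 0 and 5 with PPLG-2V-SA and 1 and 5 with PPLG-4V-SA, with median log2 fold changes of -0.10, -0.74, -0.88 and -0.66 beside 0.03 or less in size over all genes. LPS against untreated had 0 higher and 3 lower (median -0.35), which became 1 and 1 on log2(FPKM + 1).

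Hsf1, the main heat shock factor gene, had 47.8, 48.0 and 68.7 CPM with LPS + POx-SA against 39.8, 35.1 and 48.3 with LPS, overlapping groups with a log2 fold change of 0.42 ± 0.14 (adjusted p = 0.0188). That call was lost without LPS replicate 1 (0.39, adjusted p = 0.0575), LPS replicate 2 (0.31, adjusted p = 0.0964) or POx-SA replicate 3 (0.24, adjusted p = 0.107). With the PPLG polymers Hsf1 was not called, at -0.08 (PPLG-SA), 0.09 (PPLG-2V-SA) and, for PPLG-4V-SA, 0.04. So the RNA level of Hsf1 moved far less than that of Hspa1b in the same libraries.

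Hsf2, a related factor, fell to 28.9 ± 3.39 CPM with LPS + POx-SA, 22.7 ± 0.666 with PPLG-SA, 22.9 ± 1.46 with PPLG-2V-SA and 20.9 ± 0.985 with PPLG-4V-SA, against 48.5 ± 8.33 with LPS (log2 -0.75, -1.10, -1.08 and -1.22; adjusted p = 1.07e-04, 1.19e-06, 9.57e-07 and 3.74e-07). Ier5, whose product is known in human cells to promote dephosphorylation of HSF1, fell by 1.67 on the log2 scale with PPLG-2V-SA (107 ± 14.1 CPM, against 340 ± 4.70 with LPS; adjusted p = 4.61e-10). With PPLG-SA Ier5 fell by 0.74 and with PPLG-4V-SA by 0.92, while with POx-SA it stood at -0.10 (adjusted p = 0.438). Ier5l, a related gene, fell with all 4 polymers, by 2.35 (POx-SA) to 3.53 (PPLG-2V-SA).

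Of the HSP70 family and its exchange factors outside the members, 14 of 15 were tested. Against LPS, 5 rose and 3 fell with POx-SA (median 0.18), 2 and 2 with PPLG-SA (-0.06), 5 and 1 with PPLG-2V-SA (0.18) and 3 and 1 with PPLG-4V-SA (0.10), and LPS against untreated gave 6 and 1 (0.17). The split with POx-SA became 4 and 4 on log2(FPKM + 1). Hspa4l, an HSP110 like Hsph1, rose to 440 ± 111 CPM with LPS + POx-SA, against 121 ± 30.0 with LPS (log2 1.86 ± 0.17, adjusted p = 1.58e-07). St13, which encodes the HSP70-interacting protein HIP, rose with POx-SA (0.32), with PPLG-SA and PPLG-2V-SA (0.63 each) and with PPLG-4V-SA (0.52).

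Hspa1l, the third gene of the Hspa1 cluster and itself a close copy, had 6.71 ± 0.911 CPM with LPS + POx-SA, 4.84 ± 1.11 with LPS + PPLG-4V-SA and 2.45 ± 0.423 with LPS. It rose with POx-SA (1.45 ± 0.26, adjusted p = 2.09e-04), with PPLG-2V-SA (0.94 ± 0.26, adjusted p = 0.00478) and with PPLG-4V-SA (0.98 ± 0.26, adjusted p = 0.00401), the last a group in which Hspa1b was at its lowest. Since reads can match several copies, these values are uncertain in the same way as those of Hspa1a.

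Among cytosolic J-domain proteins other than Dnajb1, 13 of 14 were tested. Against LPS, 4 rose and 2 fell with POx-SA (median 0.16), 8 and 1 with PPLG-SA (0.47), 7 and 1 with PPLG-2V-SA (0.41) and 7 and 1 with PPLG-4V-SA (0.39). LPS against untreated gave 4 and 4, or 6 and 1 on log2(FPKM + 1), and on that scale the POx-SA split was 2 and 2. Dnaja1, a major HSP40 of the cytosol, rose with POx-SA (159 ± 34.4 CPM, against 85.8 ± 17.6 with LPS; log2 0.89 ± 0.14, adjusted p = 7.54e-05). With PPLG-SA it rose by 0.58, with PPLG-2V-SA by 1.05 and with PPLG-4V-SA by 0.72. Dnajc7, a co-chaperone of both HSP70 and HSP90, rose by 1.44 ± 0.16 with PPLG-2V-SA (adjusted p = 4.66e-07), and Dnajc2, a chaperone of the ribosome, rose by 1.02 with PPLG-SA, by 0.93 with PPLG-2V-SA and by 0.84 with PPLG-4V-SA.

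All 22 HSP90 co-chaperones were tested. Against LPS, 8 rose and 5 fell with POx-SA (median 0.07), 6 and 4 with PPLG-SA (0.05), 13 and 6 with PPLG-2V-SA (0.40) and 7 and 4 with PPLG-4V-SA (0.19). With PPLG-SA the 10 called of 22 were a smaller share than the 59.9% of all genes. The POx-SA split was 6 and 7 on log2(FPKM + 1), and LPS against untreated had 7 higher and 3 lower, or 16 and 1 on that scale. Fkbp5, an HSP90-bound immunophilin, fell with every polymer, to 76.8 ± 4.23 with POx-SA, then 74.5 ± 0.561 (PPLG-SA), 73.8 ± 2.04 (PPLG-2V-SA) and, for PPLG-4V-SA, 79.2 ± 2.76 CPM, against 140 ± 11.8 with LPS. Ppid, the cyclophilin Cyp40, rose with all 4 polymers, by 0.58 with POx-SA, then 0.96 (PPLG-SA), 1.03 (PPLG-2V-SA) and, with PPLG-4V-SA, 0.86. Ptges3, the co-chaperone p23, rose by 0.72 ± 0.09 with PPLG-2V-SA (adjusted p = 3.19e-06).

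Of small heat shock proteins and other heat-inducible genes, 13 of 14 were in the table and 10 were tested. Among those tested, Cryab passed the filter through LPS + POx-SA alone. It therefore had to differ between groups, and its place in the POx-SA count is no result. With POx-SA 4 rose and 0 fell against LPS (median 0.69), and with the PPLG polymers 0 rose, while 5 fell with PPLG-SA, 5 with PPLG-2V-SA and 6 with PPLG-4V-SA (medians -0.66, -0.76 and -0.95). The medians are -0.70, -1.02 and -0.98 when genes at or under 3 counts in a group are set to their bounds or left out. LPS against untreated gave 2 and 3, or 4 and 1 on log2(FPKM + 1). On that scale 5 rose and 1 fell with POx-SA, and 1 rose with PPLG-2V-SA and 1 with PPLG-4V-SA.

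Zfand2a, a heat- and arsenite-inducible gene known as AIRAP, rose to 172 ± 23.9 CPM with LPS + POx-SA, against 107 ± 6.02 with LPS (log2 0.68 ± 0.10, adjusted p = 2.42e-05). It fell to 22.6 ± 1.30 CPM with PPLG-2V-SA (-2.24 ± 0.10, adjusted p = 8.15e-12) and to 54.2 ± 0.515 with PPLG-4V-SA (-0.98 ± 0.10), and was not called with PPLG-SA (-0.22). With PPLG-2V-SA, then, Hspa1b and Dnajb1 were higher than in LPS while Zfand2a was lower. Cryab, a small heat shock protein, had 37, 21 and 15 counts with LPS + POx-SA and 0 in every LPS library, at least 27.3-fold higher when LPS is set to a group floor of 3 counts, and 0 in every PPLG library, and in untreated cells it had 3, 1 and 4 counts.

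Sqstm1, the autophagy receptor p62 that acts with Bag3, rose to 4211 ± 885 CPM with LPS, against 1276 ± 14.4 in untreated cells (log2 1.72 ± 0.16, adjusted p = 7.04e-08). With PPLG-SA it fell to 1237 ± 106 CPM, with PPLG-2V-SA to 668 ± 72.6 and with PPLG-4V-SA to 1169 ± 56.3, the direction in which Bag3 lay, and with LPS + POx-SA it was not called (4583 ± 958 CPM, log2 0.12).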

How the data were processed

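RNA was measured in 18 libraries of RAW264.7 cells. The authors deposited a gene table with raw read counts and a table of FPKM values, per the file headers; GRCm39 and CASAVA are named in the submitters' processing notes, while for the aligner, the counter, the strand setting and reads shared by close copies the entry is: not given in the sources used here. Raw counts were tested with edgeR 4.0.16 (R 4.3.3): filterByExpr with a minimum count of 10 and a minimum total of 15, TMM scaling, and a quasi-likelihood fit of all 6 groups, which share 1 estimate of the spread with 12 residual degrees of freedom. A gene was called at a Benjamini-Hochberg adjusted p below 0.05 over all 13482 genes tested, which held 99.9% of the counts. The fit was tested on simulated data: in LPS + POx-SA against LPS with 13482 genes, 25.0%, 86.8% and 98.3% of genes changed 1.5-, 2- and 4-fold were recovered. Among unchanged genes 7 were called. Every simulated gene had the same dispersion of 0.0219, and all groups had the LPS means apart from a small set of changed genes. In the real libraries the spread differed between groups, so these rates need not hold there.

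CPM use the TMM-adjusted library size, and the deposited FPKM served for levels per length, composition and ratios. Implied lengths come from counts and FPKM. The members and lists were chosen with earlier results of these data known. The text names all members, Hsf1, Hsf2, Hspa1l near its copies, genes from each list among the 3 called with the smallest p in a comparison, and the 3 genes most like each of 4 members; values of those list genes in further comparisons were added after they were seen. Alternatives were DESeq2 1.42.0, its size factors, no filter or 1 CPM in 3 libraries, the 2 groups alone, limma 3.58.1 on log2(FPKM + 1) and log2(FPKM + 0.1), each library left out, and the replicate number as a block. Replicates differed beyond sampling noise, with a chi-square per degree of freedom of 2.64 to 82.8 over 18 pairs. Same-numbered libraries of LPS and LPS + POx-SA deviated together from their group means (correlations of 0.166, 0.164 and 0.739 for replicates 1, 2 and 3). Deviations from a group mean are linked, so a shift shared by the replicates 3 also raises the other correlations. The numbers were taken to pair these 2 groups, a reading that rests mainly on the replicates 3 and that no label states. The main fit did not use this pairing. In no other comparison did all 3 pairs exceed 0.1. Gene order comes from RefSeq, in which all 10 members were found.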

Additional observations from a re-analysis of the deposited data

How the results depend on the processing

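Over the 13 comparisons 85 calls of members were made, and 71 of them held under every alternative. Fitting the 2 groups alone gave 3061 calls over all genes in place of 6239 for LPS + POx-SA against LPS, 6359 in place of 3766 for PPLG-2V-SA against PPLG-SA, 3369 in place of 223 for PPLG-4V-SA against PPLG-SA and 4417 in place of 1617 for PPLG-4V-SA against PPLG-2V-SA. For PPLG-4V-SA against PPLG-SA, DESeq2 gave 656, log2(FPKM + 1) gave 636, and leaving out 1 library gave 5 to 90; for PPLG-4V-SA against PPLG-2V-SA leaving out 1 library gave 911 to 1237. Members called were 1 without a filter and 3 with the 2 groups alone in place of 0 for PPLG-4V-SA against PPLG-SA, and 5 with DESeq2 and 6 with the 2 groups alone in place of 3 for PPLG-4V-SA against PPLG-2V-SA. For POx-SA against LPS, the 2 groups alone gave 4 in place of 8 calls in the HSP70 family, 3 in place of 6 among J-domain proteins, 4 in place of 13 among HSP90 co-chaperones, 1 in place of 4 for TRiC and prefoldin (2 to 5 without 1 library) and 3 in place of 8 in the endoplasmic reticulum. The mitochondrial list had 5 calls there, 4 to 8 without 1 library and 8 without replicate 3 of both groups. HSP90 co-chaperones had 17 calls on both FPKM scales in place of 10 for LPS against untreated. Small and inducible genes had 3 in place of 5 there with the 2 groups alone, and 3 to 5 without 1 library for PPLG-SA against LPS. The cause of these differences was not tested. None of the values tried reversed a called direction.

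With the replicate block 6430 genes and 9 members were called for POx-SA against LPS, in place of 6239 and 9, and no member's call changed there. In other comparisons, whose samples share only a number, the block lost the call of Hspa1b for POx-SA against untreated (0.71) and gained those of Hspe1 for PPLG-SA against LPS (0.43) and Hspa1b for PPLG-4V-SA against LPS (-1.38). Of 45 same-numbered pairs 8 correlated above 0.1, and 7 of 18 libraries correlated best with their own number. Low counts limit Hspa1a, Cryab and Hspa1b in LPS, PPLG-SA and PPLG-4V-SA.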

Other observations

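Chaperones of other compartments, tested in the same fit, moved in their own ways. Of 16 chaperones of the endoplasmic reticulum, 12 rose and 1 fell with LPS against untreated (median log2 0.82), and with POx-SA 1 rose and 7 fell against LPS (-0.40), with PPLG-SA 2 and 10 (-0.67), with PPLG-2V-SA 1 and 9 (-0.51) and with PPLG-4V-SA 2 and 10 (-0.66), beside 0.03 or less in size over all genes. Of all tested genes 59.2% were called for LPS against untreated (30.8% higher), and against LPS 46.3% (24.1% lower) with POx-SA, 59.9% (30.7% lower) with PPLG-SA, 61.0% (30.2% lower) with PPLG-2V-SA and 55.1% (27.1% lower) with PPLG-4V-SA. Hspa5, the HSP70 of that compartment known as BiP, fell to 1457 ± 106 CPM with LPS + PPLG-2V-SA, against 6622 ± 756 with LPS (log2 -2.18 ± 0.23, adjusted p = 2.55e-07), while its cytosolic relative Hspa8 was higher there than in LPS. Hsp90b1, the HSP90 of that compartment, rose to 1557 ± 165 CPM with LPS, against 710 ± 43.5 in untreated cells (1.13, adjusted p = 9.86e-06), where Hsp90aa1 and Hsp90ab1 overlapped untreated cells.

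All 14 genes of the cytosolic chaperonin TRiC and of prefoldin were tested, and 8 rose and 1 fell with LPS against untreated (median 0.61), Cct6a by 1.36 (adjusted p = 2.92e-09). Against LPS, 3 rose and 1 fell with POx-SA, 5 and 2 with PPLG-SA, 6 and 2 with PPLG-2V-SA and 5 and 2 with PPLG-4V-SA (medians 0.03, 0.28, 0.15 and 0.14). Of 15 mitochondrial chaperones and proteases other than Hspd1 and Hspe1, 8 rose and 2 fell with LPS (0.44), and against LPS 5 rose and 0 fell with POx-SA (0.21), 8 and 2 with PPLG-SA (0.51), 7 and 3 with PPLG-2V-SA (0.13) and 7 and 2 with PPLG-4V-SA (0.27). Hspa9, the mitochondrial HSP70, rose to 1013 ± 54.4 CPM with LPS, against 519 ± 12.7 in untreated cells (0.96, adjusted p = 4.23e-06), and Lonp1, a protease of the mitochondrial matrix, rose with POx-SA to 432 ± 117 CPM, against 226 ± 46.8 with LPS (0.93, adjusted p = 1.41e-04).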
